A study of Drosophila melanogaster with 16 samples.

Results

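Cuticle protein genes were followed in body-wall muscle dissected from tumour-bearing Drosophila larvae. A gene was taken as a member where its current FlyBase symbol began with Lcp, Cpr and a number, Ccp84, Acp65, Edg, Pcp or Twdl. No measured value entered that rule, but the members were chosen with earlier results of these data known. It found 125 members among 15682 genes: 70 Cpr genes, 26 Twdl (Tweedle) genes, 17 Lcp genes, 7 Ccp84 genes, 3 Edg genes, Acp65Aa and Pcp. The insect cuticle is a layer of chitin fibres and proteins that the epidermis secretes at each moult and thickens between moults. Most Lcp, Cpr, Ccp84, Edg, Acp65 and Pcp proteins carry the Rebers-Riddiford (RR) domain, which binds chitin, and the RR-1 form is commonly found in soft cuticle and the RR-2 form in hard cuticle. Lcp1 to Lcp4 encode major proteins of the third-instar larval cuticle, Pcp a pupal and Acp65Aa an adult cuticle protein, the Edg genes respond to ecdysone in prepupal discs, and Tweedle proteins help to shape the larval cuticle. Muscles of the larval body wall attach to the epidermis and its cuticle, so dissected body-wall muscle can carry epidermal RNA beside muscle RNA.

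All animals were ras1G12V;csk-/- larvae: GFP-labelled eye clones, made by eyeless-driven recombination (ey(3.5)-FLP1), expressed UAS-ras1G12V through act-gal4 and were homozygous for csk Q156Stop, a stop allele of the inhibitor of Src. Control-diet animals (CD, day 8 after egg laying) were raised on 0.15 M sucrose. High-sugar diet (HSD) animals were raised on 1.0 M sucrose and taken, by their sample labels, at day 12 (Early), day 14 (Mid) or day 16 (Late). Each of the 4 conditions had 4 libraries of pooled dissected tissue, no library came from animals without tumours, and HSD delays the third instar, so diet and age change together against CD and cannot be told apart. No source says whether the pools came from separate cultures, so the p-values measure the spread between these pools.

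Total counts per library were between 9666672 (CD 3) and 28698585 (Late 3), and no library was a copy of another. Levels are given in CPM, that is counts divided by the TMM-scaled library size and set to a common total. All 17 muscle markers matched in the table were measured, and their summed level was 27874 to 63778 CPM for CD, 72482 to 191786 for Early, 18716 to 47441 for Mid and 9074 to 21698 for Late. The epidermal transcription factor grh was read in every library, from 94.3 to 291 CPM. Libraries Early 1 and Mid 2 stood apart from their own conditions for several members, and results are given without them where that changed a count. In bulk tissue, fewer epidermal cells and less RNA per cell cannot be told apart. Reads could be split between near-identical copies, so the values of Lcp65Ag1, Lcp65Ag2 and Lcp65Ag3, of Lcp65Ab1 and Lcp65Ab2, of Cpr65Ax1 and Cpr65Ax2, of Cpr67Fa1 and Cpr67Fa2, and of Lcp1, Lcp2 and the pseudogene Lcp1Psi are uncertain within each set. Lcp9, Lcp65Ag3, Cpr65Au and Cpr67Fb overlap antisense genes and Pcp lies in an intron of Gart on the other strand, and the strand setting of the counting is not given in the sources used here.

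Of the 125 members, 72 passed the filter on low counts and were tested. The other 53 had at most 253 counts over all 16 libraries and at most 8.40 CPM in any library, and 6 of them had 0 counts throughout. Levels were very uneven: 35 members averaged at least 10 CPM, 15 at least 100 CPM and 8 at least 1000 CPM. Per kilobase of exon, the highest means over all libraries were those of Lcp4 (18288 CPM per kb), Lcp1 (16392), Lcp3 (10578), Lcp2 (5733) and Cpr78E (4880).

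The members together took 5.15 to 6.96% of all counts for CD, 6.61 to 11.48% for Early, 2.91 to 5.40% for Mid and 1.62 to 3.02% for Late. Their summed level was 62102 CPM for CD (47969 to 79284), 112071 for Early (74047 to 182450), 36522 for Mid (28512 to 54591) and 17730 for Late (14717 to 25029). The Late libraries lay below those of every other condition, whereas the Early and CD ranges overlapped and so did those of Mid and CD. Early 1 was the highest library, and without it the Early mean was 88611 CPM. Most of this movement came from 4 genes: without Lcp1, Lcp2, Lcp3 and Lcp4 the summed level was 13826 CPM for CD, 14797 for Early, 10883 for Mid and 9008 for Late, and the libraries of all 4 conditions overlapped.

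Lcp1 and Lcp2, which lie side by side and encode major larval cuticle proteins, changed at Late. Lcp1 was at 34245, 26081, 22333 and 37763 CPM in CD 1 to 4 and at 20774, 22382, 24020 and 31179 at Early. At Mid it was at 6187, 7072, 23498 and 9492 CPM, and in the Late libraries at 2250, 2877, 2536 and 6624. CD and Early overlapped, Mid 3 reached their range, and all Late libraries lay below all CD and Early libraries. The fall at Late was 8.43-fold against CD (log2 fold change −3.08 ± 0.46 SE, edgeR adjusted p = 0.0006) and 6.88-fold against Early (−2.78 ± 0.45, adjusted p = 0.00102). Lcp2 fell at Late from a mean of 7120 CPM (4812 to 9167) in CD and 9511 (7772 to 11877) at Early to 1135 (850 to 1778), which was 6.27-fold below CD (edgeR adjusted p = 0.00101). These calls held in each of the 16 fits that left out 1 library.

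Lcp3 and Lcp4, their neighbours in the same group of 5 genes, had another course. Lcp3 was at 1377, 971, 417 and 1765 CPM in CD and at 74666, 7300, 11014 and 17405 at Early. It was at 1622, 76.0, 2551 and 1692 CPM at Mid and at 1685, 593, 55.6 and 366 at Late. Every Early library was above every library of the other conditions, Early 1 was far above the rest, and Mid 2 and Late 3 were the lowest. Lcp3 rose 24.4-fold at Early over CD (4.61 ± 1.15 log2, edgeR adjusted p = 0.0238), a call that was lost without CD 1, CD 2, CD 3 or Early 1 (adjusted p up to 0.0939, with the log2 fold change between 3.40 and 4.85 over all 16 fits that left out a library). It fell 40.9-fold from Early to Late (−5.35 ± 1.19 log2, edgeR adjusted p = 0.00595), in every fit that left out a library, with log2 fold changes of −4.19 without Early 1 and −6.29 without Late 1. Lcp4 was at 10249, 7323, 6386 and 15718 CPM in CD and at 57661, 23840, 25711 and 35100 at Early. Its Mid libraries were at 9502, 2023, 12481 and 12381 CPM and its Late libraries at 4398, 3301, 1032 and 4632. The 4 Early libraries were above all others, yet the difference from CD, 1.84 ± 0.56 on the log2 scale, was not called (edgeR adjusted p = 0.0518). Lcp4 fell 10.6-fold from Early to Late (−3.41 ± 0.59 log2, edgeR adjusted p = 0.00142).

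**Figure D1:**
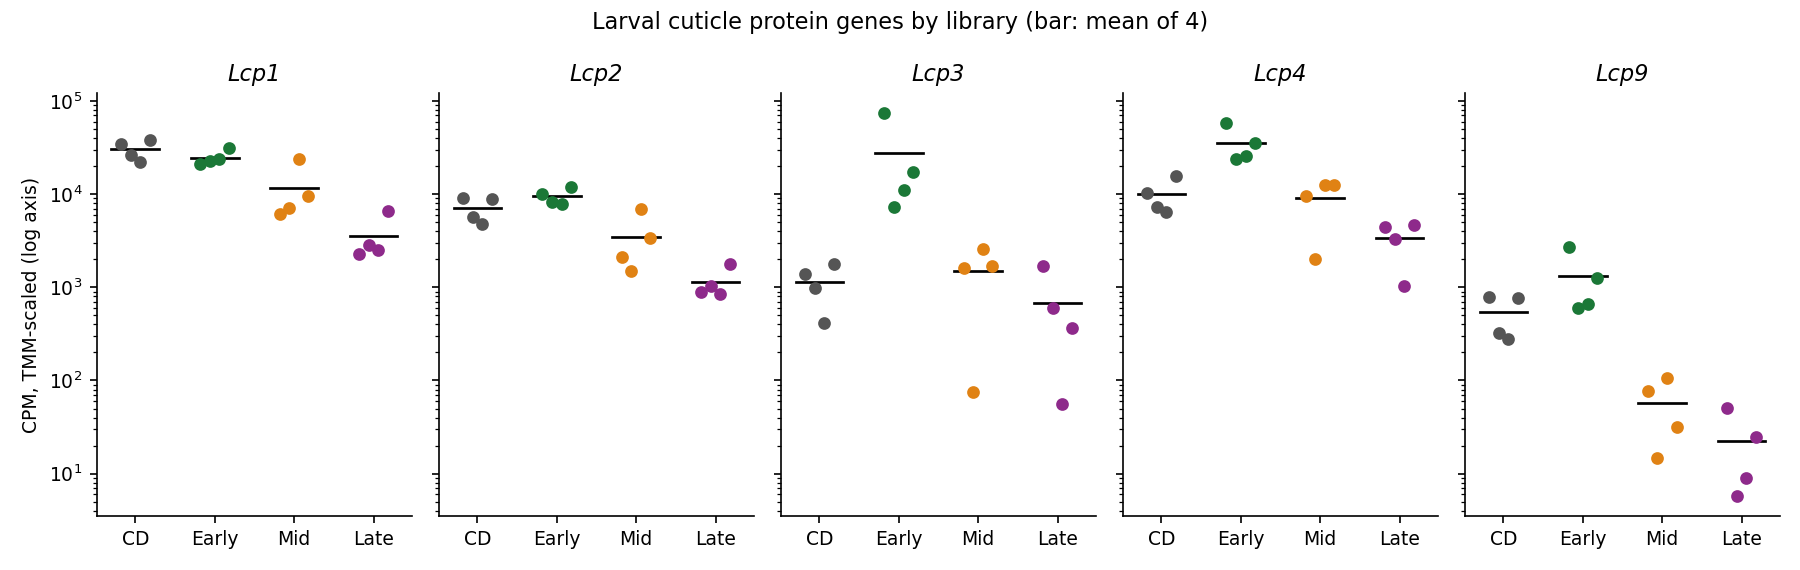
CPM of Lcp1, Lcp2, Lcp3, Lcp4 and Lcp9 in each of the 16 libraries by condition, on a log axis, where a point is a library and a bar is the mean of 4. Lcp1 and Lcp2 overlap between CD and Early and are lower at Late, whereas all Early points of Lcp3 (7300 to 74666 CPM) lie above the other conditions.

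The make-up of the cuticle protein RNA differed between conditions. Lcp1 gave 46.6 to 52.4% of the counts of all members in CD and 11.4 to 30.2% at Early. Lcp3 gave 0.870 to 2.23% in CD and 9.86 to 40.9% at Early, and Lcp4 went from 13.1 to 19.8% in CD to 31.3 to 32.3% at Early. None of these ranges overlapped between CD and Early, and at Mid the share of Lcp4 ran from 7.10% in Mid 2 to 36.1% in Mid 4. Lcp1 to Lcp4 and Lcp1Psi together held 70.8 to 84.3% of members' counts in CD and 83.5 to 89.4% at Early, but 29.7 to 62.6% at Late. The rest at Late was mainly Cpr49Ac, Cpr78E, Cpr67B and Cpr47Eb, 4 Cpr genes at 1000 CPM or more on average.

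**Figure D2:**
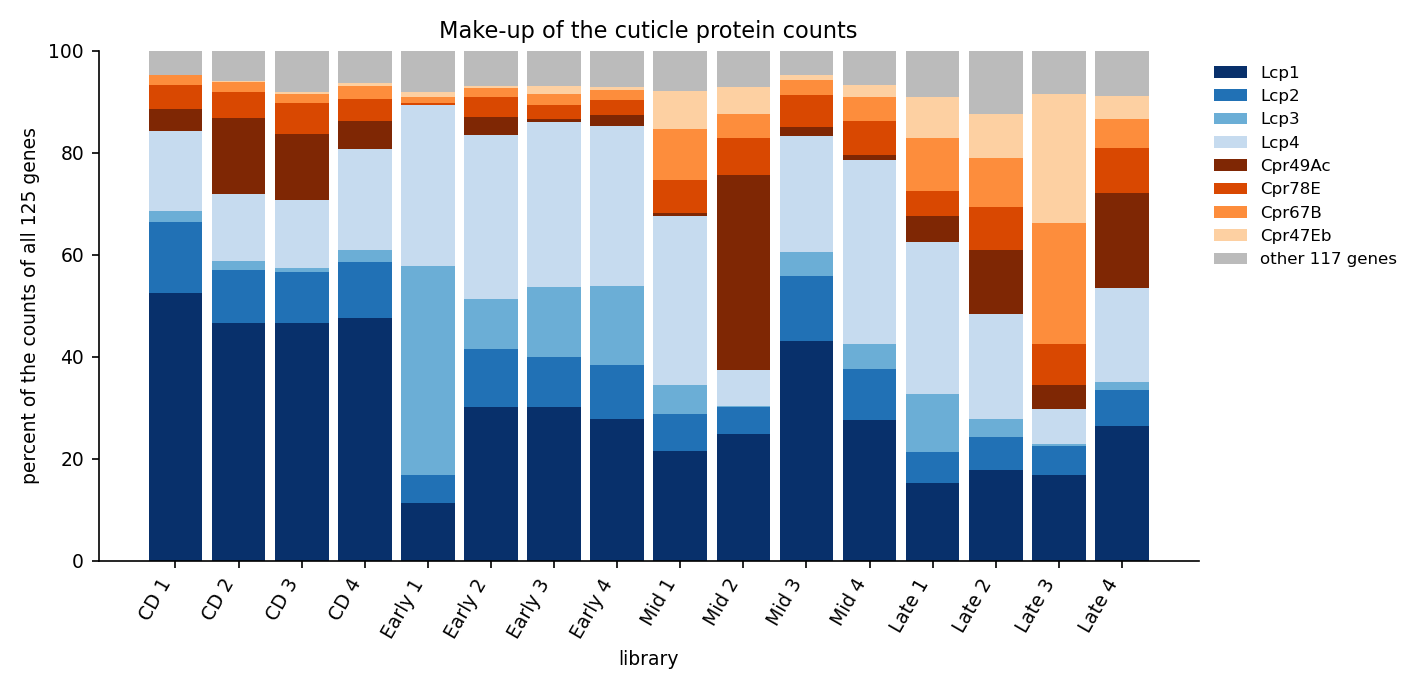
Percent of the counts of all 125 cuticle protein genes taken by Lcp1 to Lcp4, by 4 abundant Cpr genes and by the other 117 genes in each library. Lcp1 holds 46.6 to 52.4% in the CD libraries, Lcp3 is widest in Early 1 (40.9%), Lcp4 in Mid 4 (36.1%), and Cpr49Ac in Mid 2.

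Between Early and CD, 13 of the 72 tested members were higher and 2 lower, where 6.44% of all 11607 genes tested were higher and 2.70% lower. The median log2 fold change of the members was 0.99, against −0.01 over all genes tested. The members that rose were Cpr11A, Cpr47Eb, Cpr47Ec, Cpr47Eg, Cpr49Af, Cpr60D, Cpr65Ax1, Cpr67Fa1, Cpr67Fa2, Lcp3, Lcp65Ab2, Lcp65Ag2 and Lcp65Ag3, and those that fell were Cpr66D and Cpr67Fb. The number called was 7 without CD 2, without CD 3 or without Early 1, and 18 without Early 2. Cpr11A, Cpr47Ec, Cpr67Fa2, Cpr67Fb, Lcp65Ag2 and Lcp65Ag3 were called in every such fit.

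Between Mid and CD, 1 member was higher (Cpr47Eb) and 4 were lower (Cpr56F, Cpr78Cc, Cpr92F and Lcp9), with 4.37% of all genes tested higher and 1.95% lower. The share of members higher, 1.39%, was below the background. The members' median was −0.95, against −0.06 over all genes. No member was called without Mid 1 or without Mid 4, 1 was called without CD 2, 2 without CD 3, 3 without CD 1 or Mid 2, and none of the 5 was called in all 16 of these fits.

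Between Late and CD, 22 members were lower and 1 was higher, with 7.70% of all genes tested lower and 14.0% higher. The median was −1.50, against −0.08 over all genes. The lower members were called beyond the background in that direction and the higher ones below it. The number called was 12 without Late 3 and 13 without Late 2, and 11 members kept their call in every fit that left out 1 library: Lcp1, Lcp2, Lcp9, Lcp65Aa, Lcp65Ac, Cpr51A, Cpr66Cb, Cpr78Cc, Cpr92F, TwdlX and, as the only higher one, Cpr47Eb.

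Within HSD, 14 members were lower at Mid than at Early and 0 higher, with 1.82% of all genes tested lower and 0.276% higher. The count of 14 fell to 0 when Early 1, Early 4 or any single Mid or Late library was left out. It was also 0 without Early 1 and Mid 2 together, a fit in which 0 of all genes tested were called. That last loss was thus not particular to the members. For the fits without a single library, the count over all genes is not given here. All 14 members lower at Mid than at Early were also lower at Late than at Early. Between Late and Early, 37 members were lower and 1, Cpr67Fb, was higher, with 10.1% of all genes tested lower and 10.1% higher, and a median of −1.85 against −0.05. Those 38 calls went down to 27 without Early 4, and 24 members were called in all 16 fits. Between Late and Mid, 0 members were called by edgeR, with 0.0431% of all genes tested lower and 0.146% higher. There, 15 members (20.8%) had an unadjusted p under 0.05, as had 12.8% of all genes tested, and DESeq2 called 7 members among 571 genes. The comparisons with CD share the CD libraries and those with Early share the Early libraries, so these counts are not independent of each other.

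**Figure D3:**
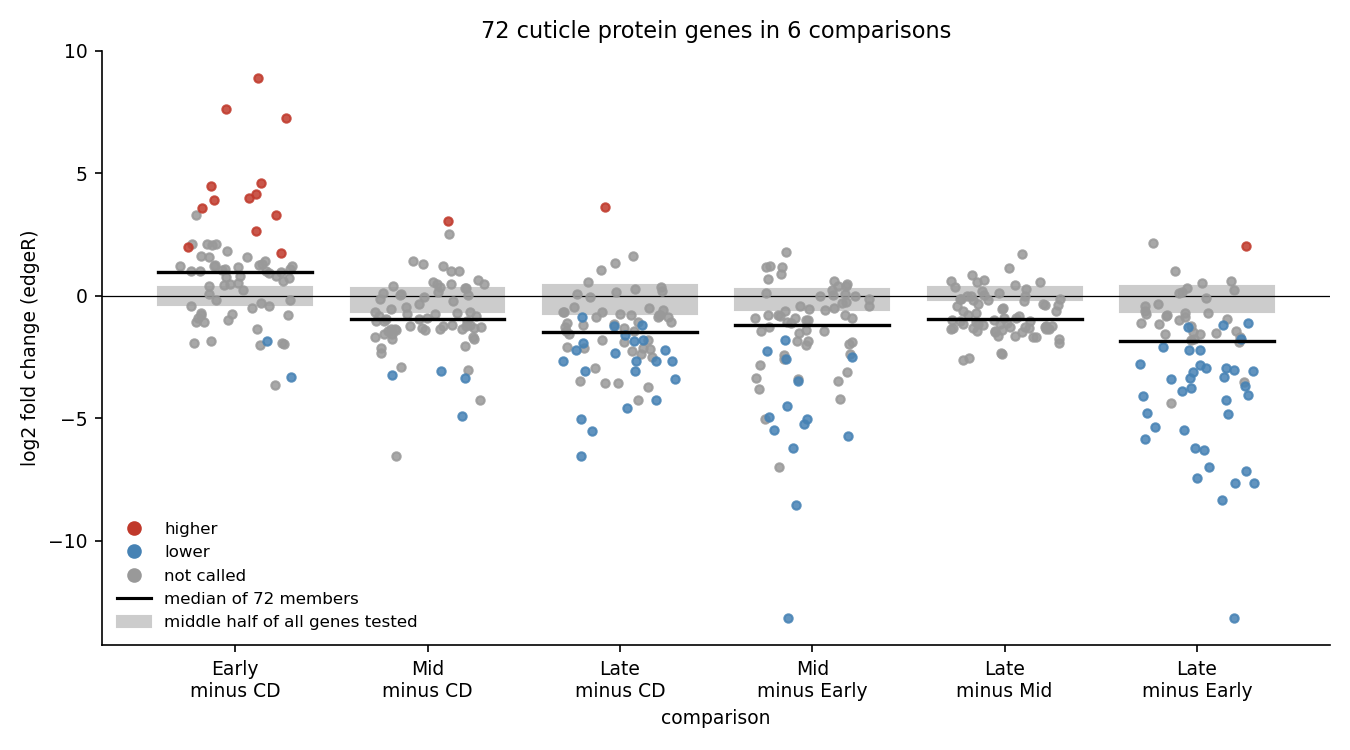
Log2 fold changes (edgeR) of the 72 tested members in the 6 comparisons, coloured by call, with the members' median as a black line and the interquartile range of all genes tested as a grey box. The median is 0.99 for Early minus CD and −1.85 for Late minus Early, and no point is coloured for Late minus Mid.

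In all, 12 members were higher at Early than in CD and lower at Late than at Early: Lcp3, Lcp65Ab2, Lcp65Ag2, Lcp65Ag3, Cpr11A, Cpr47Ec, Cpr47Eg, Cpr49Af, Cpr60D, Cpr65Ax1, Cpr67Fa1 and Cpr67Fa2. Over all genes tested, 3.16% had this pattern, against 16.7% of the members. Among the 12, Lcp65Ab2 passed the filter on low counts only through its Early libraries. A further pattern was held by 15 members that were lower at Late than in both CD and Early, among them Lcp1, Lcp2, Lcp9 and TwdlX, with Cpr47Ec and Cpr49Af in both sets. This was 20.8% of the members and 3.7% of all genes. Among the 15, Acp65Aa and Ccp84Ad passed the filter on low counts only through CD and Early libraries. The set of 7 that were lower at Late than in CD but not than at Early was Cpr100A, Cpr51A, Cpr56F, Cpr66Cb, Cpr66D, Cpr92F and TwdlG, or 9.72% of the members against 4.01% of all genes. Of the 72, 26 (36.1%) were called in no comparison, as were 66.6% of all genes. Leaving out a single library moved the fold of 42 of the 95 member calls by over 1.5 times, 26 of them when Early 1 was left out.

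The 65A group on chromosome arm 3L held 19 members within a run of 20 genes. It includes the Lcp65A larval cuticle genes, the Cpr65A genes and Acp65Aa, and 15 of its members were tested. Its summed level was 224 to 361 CPM for CD, 571 to 1810 for Early, at most 234 for Mid and 58.6 to 90.1 for Late, so that all Early libraries were above all others and all Late libraries below CD. Between Late and Early 13 of the 15 were lower (median log2 fold change −4.08), with 10.1% of all genes tested lower. The remaining pair, Lcp65Ae and Lcp65Af, was not called. Among the 13, Lcp65Ab2, Acp65Aa and Lcp65Ad passed the filter on low counts only through CD or Early libraries. They had 0, 0 and 3 counts at Late, so their calls are partly set by that filter. The calls of Lcp65Ad and Lcp65Ag1 were lost in 9 and 13 of the 16 fits that left out a library (edgeR adjusted p up to 0.131 and 0.279).

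Lcp65Ag3, a larval cuticle gene of this group, was at 0.658, 0.236, 0.578 and 2.44 CPM in CD and at 583, 22.7, 38.0 and 109 at Early. At Mid it was at 2.12, 0.467, 4.82 and 2.70 CPM and at Late at 1.95, 0.428, 0.745 and 1.22. The lowest Early library was above the highest of the other 12, and Early 1 was highest. The rise over CD was 7.62 ± 1.20 on the log2 scale (edgeR adjusted p = 0.00485) and the fall from Early to Late 7.44 ± 1.17 (adjusted p = 0.000881), and both were called whichever library was left out. Without Early 1 the log2 fold changes were 5.88 and −5.77, and without CD 4 the rise was 8.53. Its near-identical neighbour Lcp65Ag2 averaged 2.36 CPM for CD, 35.7 for Early, 3.24 for Mid and 1.29 for Late, with the same calls, and its log2 rise over CD was 3.92, or 3.30 without Early 1.

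Lcp65Ab2 was read mainly at Early. It had 7 counts in all CD libraries together, 3201 at Early and 0 in each Mid and each Late library. Only its Early libraries carried it past the filter on low counts. Its calls in the comparisons with Early are thus partly set by that filter, and the counts of members called there include it. By library, the Early levels were 40.5, 1.18, 145 and 17.4 CPM, of which Early 3 was highest and Early 2 lowest, and the call of a rise over CD (edgeR) was lost without CD 2 or CD 3 (adjusted p up to 0.0612). Against a floor of 3 counts per library, its level at Early was at least 425-fold higher than at Mid and at least 518-fold higher than at Late, or 164-fold and 200.3-fold when Early 3 was left out. Its copy Lcp65Ab1, which passed the filter's cutoff in too few libraries to be tested, had 251 counts at Early, 2 in CD and 0 at Mid and Late. Cpr65Ax1 rose 17.99-fold at Early over CD (edgeR adjusted p = 0.0453), a call lost in 12 of the 16 fits that left out a library (adjusted p up to 0.196; 9.13-fold without Early 1), and it fell at Late to 0.0048 of its Early mean (−7.64 log2, −6.66 without Early 1 and −8.29 without Late 2). Its copy Cpr65Ax2 had 52 counts at Early, 2 at Mid and 0 in CD and at Late.

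Cpr65Av, with the highest mean CPM of the group (per kilobase Cpr65Ay was higher, at 174 against 149 CPM per kb), was at 102, 97.8, 131 and 88.6 CPM in CD and at 320, 216, 159 and 199 at Early. At Mid it was at 12.0, 0.509, 77.2 and 75.7 CPM and at Late at 10.2, 30.3, 0.162 and 13.2, so libraries within each of these conditions lay far apart. It was lower at Late than at Early (−4.05 ± 1.16 log2, edgeR adjusted p = 0.0228; lost without Early 1, Late 1 or Late 4, adjusted p up to 0.0702; −4.83 without Late 2). Lcp65Aa fell from 32.2 ± 17.0 CPM (SD, n = 4) in CD to 5.11 ± 2.38 at Late (edgeR adjusted p = 0.0091) and Lcp65Ac from 10.9 ± 3.67 to 1.73 ± 0.831 (adjusted p = 0.00779). Acp65Aa, the adult cuticle gene, had 13 counts for CD, 74 for Early, 3 for Mid and 0 for Late, and its level at Early was at least 11.1-fold higher than at Late.

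The 67F group, also on 3L, held 3 neighbouring genes, and not all of them moved one way. Cpr67Fa2 was at 12.0, 3.16, 8.48 and 21.6 CPM in CD and at 325, 43.6, 52.4 and 124 at Early. The Mid libraries had 3.93, 1.19, 7.22 and 5.09 CPM and the Late libraries 4.23, 2.11, 3.11 and 2.94. The Early libraries were above all others. It rose 12.1-fold over CD (3.59 ± 0.72 log2, edgeR adjusted p = 0.00978) and fell 44.1-fold from Early to Late (−5.46 ± 0.79, adjusted p = 0.000744), in every fit that left out a library. Without Early 1 these were 2.71 and −4.61 on the log2 scale. Cpr67Fa1 rose 22.6-fold at Early (edgeR adjusted p = 0.0133), which was lost without Early 1 (log2 from 4.49 to 3.49, adjusted p = 0.0641). Cpr67Fb went the other way: 11.6, 6.98, 9.34 and 38.0 CPM in CD, 1.63, 1.84, 1.42 and 1.70 at Early, 1.99, 2.80, 2.60 and 7.48 at Mid and 1.66, 3.39, 9.52 and 12.4 at Late. It fell 10.0-fold at Early (−3.32 ± 0.70 log2, edgeR adjusted p = 0.0115, also in every such fit, with −2.54 without CD 4) and was higher at Late than at Early (2.03 ± 0.66, adjusted p = 0.0436), with overlapping libraries and a call that was lost in 8 of the 16 fits (adjusted p up to 0.113).

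The 47E group on 2R held 7 genes, 5 of them tested. Cpr47Eb was the one member that was higher than CD at all 3 HSD stages. It was at 47.0, 67.3, 148 and 336 CPM in CD and at 1638, 263, 1170 and 649 at Early. In the Mid libraries it was at 2168, 1486, 512 and 807 CPM, and in the Late libraries at 1175, 1377, 3782 and 1110. CD 4 overlapped Early 2, whereas the Mid and Late libraries were all above CD. The log2 fold changes over CD were 2.64 ± 0.72 at Early (edgeR adjusted p = 0.035), 3.06 ± 0.73 at Mid (0.0266) and 3.64 ± 0.75 at Late (0.00365). The call at Late held in every fit that left out a library, that at Mid was lost without CD 2, CD 3, Mid 1 or Mid 4 (adjusted p up to 0.0847) and that at Early in 10 of the 16 fits (up to 0.133). Without CD 4 the log2 fold changes were 3.33, 3.86 and 4.36, and without Late 3 that at Late was 3.01. The differences between the HSD stages were not called.

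Its neighbours Cpr47Ec and Cpr47Eg were high at Early alone. Cpr47Ec was at 78.1, 28.2, 33.8 and 89.6 CPM in CD and at 2022, 354, 407 and 894 at Early, and it averaged 28.2 at Mid and 12.3 at Late. The rise over CD was 16.0-fold (SE 0.81 on the log2 scale, edgeR adjusted p = 0.0102), or 9.68-fold in the fit without Early 1. Cpr47Eg was at 382 CPM in Early 1 and at 1.23, 1.23 and 7.34 in the other Early libraries, against at most 1.09 in any other library. Its fitted rise over CD of 7.26 on the log2 scale (edgeR adjusted p = 0.0213) rested on Early 1: without it the log2 fold change was 2.45 and the call was lost (adjusted p = 0.311).

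In the 49A group on 2R, 7 of 8 genes were tested and Cpr49Ac, the most abundant, varied widely within conditions. It was at 2809, 8313, 6228 and 4403 CPM in CD and at 31.5, 2537, 470 and 2355 at Early. Mid libraries were at 167, 10921, 960 and 345 CPM and Late libraries at 740, 2015, 701 and 4661. All Early libraries were below all CD libraries (−2.01 ± 1.26 log2, edgeR adjusted p = 0.369), whereas the other pairs of conditions overlapped, Mid 2 was above every CD library, and no comparison was called. Cpr49Af was high at Early, with 1072 ± 233 CPM (SD, n = 4) against 315 ± 145 in CD, and it averaged 308 ± 135 at Mid and 133 ± 50.5 at Late. All Early libraries (821 to 1275 CPM) were above all others (highest 515). It rose 3.40-fold at Early (edgeR adjusted p = 0.0178; lost without CD 2, CD 3, Early 1 or Early 4, up to 0.0686) and was lower at Late than at Early (−3.02 ± 0.43 log2, adjusted p = 0.000731). Cpr49Ad, Cpr49Ae, Cpr49Ag and Cpr49Ah were also lower at Late than at Early, with log2 fold changes between −3.33 and −1.19, and of these only Cpr49Ah kept its call in every fit that left out a library.

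The 3 genes of 78C on 3L were all lower at Late than in CD and than at Early. Of all genes tested, 7.70% were lower at Late than in CD and 10.1% than at Early. Cpr78Cc was at 21.8, 4.39, 4.53 and 6.92 CPM in CD and at 82.1, 26.8, 21.1 and 33.0 at Early. At Mid it was at 0.309, 0.0849, 1.81 and 1.42 CPM, and in the Late libraries at 0.397, 0.527, 0.130 and 0.0890. Mid and Late libraries were below all CD libraries. It fell by 5.03 ± 0.92 on the log2 scale at Late against CD (edgeR adjusted p = 0.0018) and 143-fold against Early (edgeR adjusted p = 0.000704), in every fit that left out a library. Without CD 1 the log2 fold change at Late against CD was −4.19, and without Early 1 the fitted fall from Early was 92.4-fold. Cpr78Ca went from 46.4 ± 16.0 CPM (SD, n = 4) in CD and 92.9 ± 17.8 at Early to 20.2 ± 7.58 at Late. The Late and CD libraries overlapped, and its fall from CD (edgeR adjusted p = 0.0455) was lost in 10 of the 16 fits (up to 0.14). Cpr78Cb was low, at means of 1.08 CPM in CD, 1.64 at Early and 0.229 at Late. Its fall from CD was lost without CD 2, Late 2 or Late 3 (edgeR adjusted p up to 0.0587).

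Lcp9, a larval cuticle gene on 2R apart from the Lcp1 to Lcp4 group, was lower at Mid and at Late. It was at 782, 320, 278 and 772 CPM in CD and at 2712, 595, 669 and 1264 at Early. The Mid libraries had 77.8, 14.7, 105 and 31.5 CPM and the Late libraries 51.2, 5.70, 8.91 and 24.7. Mid and Late overlapped each other and lay below all CD and Early libraries. The fall against CD was 9.38-fold at Mid (edgeR adjusted p = 0.0286; lost without CD 2, CD 3, CD 4, Mid 1, Mid 2 or Mid 4, up to 0.0934) and 23.8-fold at Late (adjusted p = 0.00187), and from Early to Late it was 57.9-fold (adjusted p = 0.000797). Without Late 1 the fitted falls to Late were 41.8-fold and 101-fold.

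Single Cpr genes at other bands were also called. Cpr60D was at 310, 245, 278 and 638 CPM in CD and at 2386, 833, 1038 and 1539 at Early, and it averaged 407 ± 221 (SD, n = 4) at Mid and 170 ± 87.0 at Late. It rose 3.94-fold at Early (edgeR adjusted p = 0.0413), a call lost in 12 of the 16 fits that left out a library (up to 0.147), and it fell from Early to Late in all of them (−3.09 ± 0.59 log2, adjusted p = 0.00241). Cpr11A rose 9.85-fold at Early, from 72.9 ± 31.0 to 718 ± 474 CPM (edgeR adjusted p = 0.00323), and averaged 149 at Mid and 153 at Late.

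Other Cpr genes had their highest mean in CD. Cpr92F was at 156.3, 71.5, 42.5 and 69.9 CPM in CD and at 21.4, 14.0, 23.5 and 30.4 at Early. At Mid it was at 14.4, 5.86, 8.95 and 11.7 CPM and at Late at 15.0, 0.823, 6.57 and 18.7. All HSD libraries were below all CD libraries. The fall was 8.31-fold at Mid (edgeR adjusted p = 0.0207; lost without Mid 1 or Mid 4, up to 0.0611) and 8.29-fold at Late (adjusted p = 0.00527). Cpr56F was at 23.7, 27.6, 22.6 and 6.17 CPM in CD and at most at 3.93 in any HSD library, with 0 in Early 1 and Early 3. Its fall was called at Mid (−4.91 ± 1.35 log2, edgeR adjusted p = 0.0446) and Late (−4.25 ± 1.31, adjusted p = 0.0309), and was lost in 8 of the 16 fits at Mid (adjusted p up to 0.125) and without CD 2, CD 3, Late 2 or Late 3 at Late (adjusted p up to 0.0902). Cpr66D fell at Early from 10.8 ± 4.51 CPM (SD, n = 4) to 3.02 ± 1.61 (edgeR adjusted p = 0.0283), with CD 4 inside the Early range and the call lost without CD 1, CD 2, CD 3, Early 1 or Early 3 (up to 0.0831). Cpr51A fell 5.09-fold and Cpr66Cb 10.5-fold at Late against CD (edgeR adjusted p = 0.00689 and 0.00633), in every fit that left out a library.

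Other abundant members were not called in any comparison. Cpr67B averaged 1349 ± 560 CPM (SD, n = 4) for CD, 1860 ± 380 for Early, 1866 ± 685 for Mid and 2022 ± 1033 for Late, with overlap throughout. Cpr78E was at 2858 to 3332 CPM for CD, 551 to 3392 for Early, 1808 to 3397 for Mid and 718 to 2194 for Late. All Late libraries of Cpr78E were below all CD libraries, without a call. Pcp, the pupal cuticle gene, was at 648, 1588, 2036 and 1790 CPM in CD and at 1139, 835, 484 and 567 at Early. In the Mid libraries it was at 644, 1329, 575 and 558 CPM, and in the Late libraries at 342, 1362, 747 and 1335. CD 1 was inside the range of each HSD stage.

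The Tweedle family had 26 members on 4 arms, of which 9 were tested, and TwdlX carried most of its level. TwdlX was at 99.4, 79.5, 126 and 257 CPM in CD and at 766, 275, 260 and 390 at Early. Mid libraries were at 132, 29.4, 73.6 and 62.9 CPM and Late libraries at 27.7, 22.8, 13.6 and 24.8. The Early libraries were above and the Late libraries below those of every other condition. The fall at Late was 6.32-fold against CD (−2.66 ± 0.50 log2, edgeR adjusted p = 0.00204) and 19.0-fold against Early (−4.25 ± 0.53, adjusted p = 0.000557), in every fit that left out a library. The other 8 tested Tweedle genes averaged at most 5.20 CPM. Of these TwdlU was lower at Late than at Early (−1.26 ± 0.32 log2, edgeR adjusted p = 0.0131) and TwdlG lower at Late than in CD (−1.82 ± 0.60, adjusted p = 0.0426), and both calls were lost without Late 1 or Late 2, among others (up to 0.0708 and 0.12). The untested 17 reached at most 0.708 CPM, and TwdlQ, TwdlR and TwdlZ had 0 counts, which allows up to 3 counts in a library.

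The 84A group on 3R, with the Ccp84A genes and Edg84A, was near its limit of detection, at 0.0963 to 4.91 CPM in CD and at most 7.85 CPM in any library for all 8 genes together. Ccp84Ad had 36 counts in CD, 46 at Early and 0 at Mid and at Late, so that its level at Early was at least 7.11-fold higher than at Late, but CD 2 and CD 3 were also at 0. Ccp84Ad passed the filter on low counts only through CD and Early libraries, so its calls at Late are partly set by that filter. These calls were lost in 10 and 8 of the 16 fits that left out a library (adjusted p up to 0.0916 against CD and 0.0839 against Early). Ccp84Ag, with the highest mean CPM of the group (1.22), reached 2.97 CPM at most and was not called. Edg84A reached 0.165 CPM at most. Of the other ecdysone-dependent genes, Edg78E was at 0.324 to 2.90 CPM over all libraries without a call. Edg91 fell from 5.89 ± 0.592 CPM (SD, n = 4) in CD and 7.03 ± 1.69 at Early to 3.24 ± 0.914 at Late (edgeR adjusted p = 0.0346 and 0.00979), by 0.86 and 1.11 on the log2 scale. The fall of Edg91 against CD was lost without CD 2, CD 3, CD 4, Mid 3, Late 1, Late 2 or Late 3 (up to 0.0992) and that against Early without Early 4 (0.0597).

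Several RR gene groups were scarcely read in this tissue. Each of the 62B, 64A, 65E and 76B groups had 1 tested gene and otherwise untested genes of at most 0.692 CPM. Cpr62Bc was at 8.59 to 24.99 CPM in CD and 19.3 to 49.7 at Early but at 0.0659 to 9.97 at Late (Late minus Early −2.95 ± 0.98 log2, edgeR adjusted p = 0.0454; lost in 11 of the 16 fits, up to 0.0964; −3.95 without Late 3). Cpr64Aa, Cpr65Ec and Cpr76Bc reached 17.6, 5.42 and 9.89 CPM at most and were not called. The 3 genes of 72E had at most 7 counts each and reached at most 0.181 CPM.

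**Figure D4:**
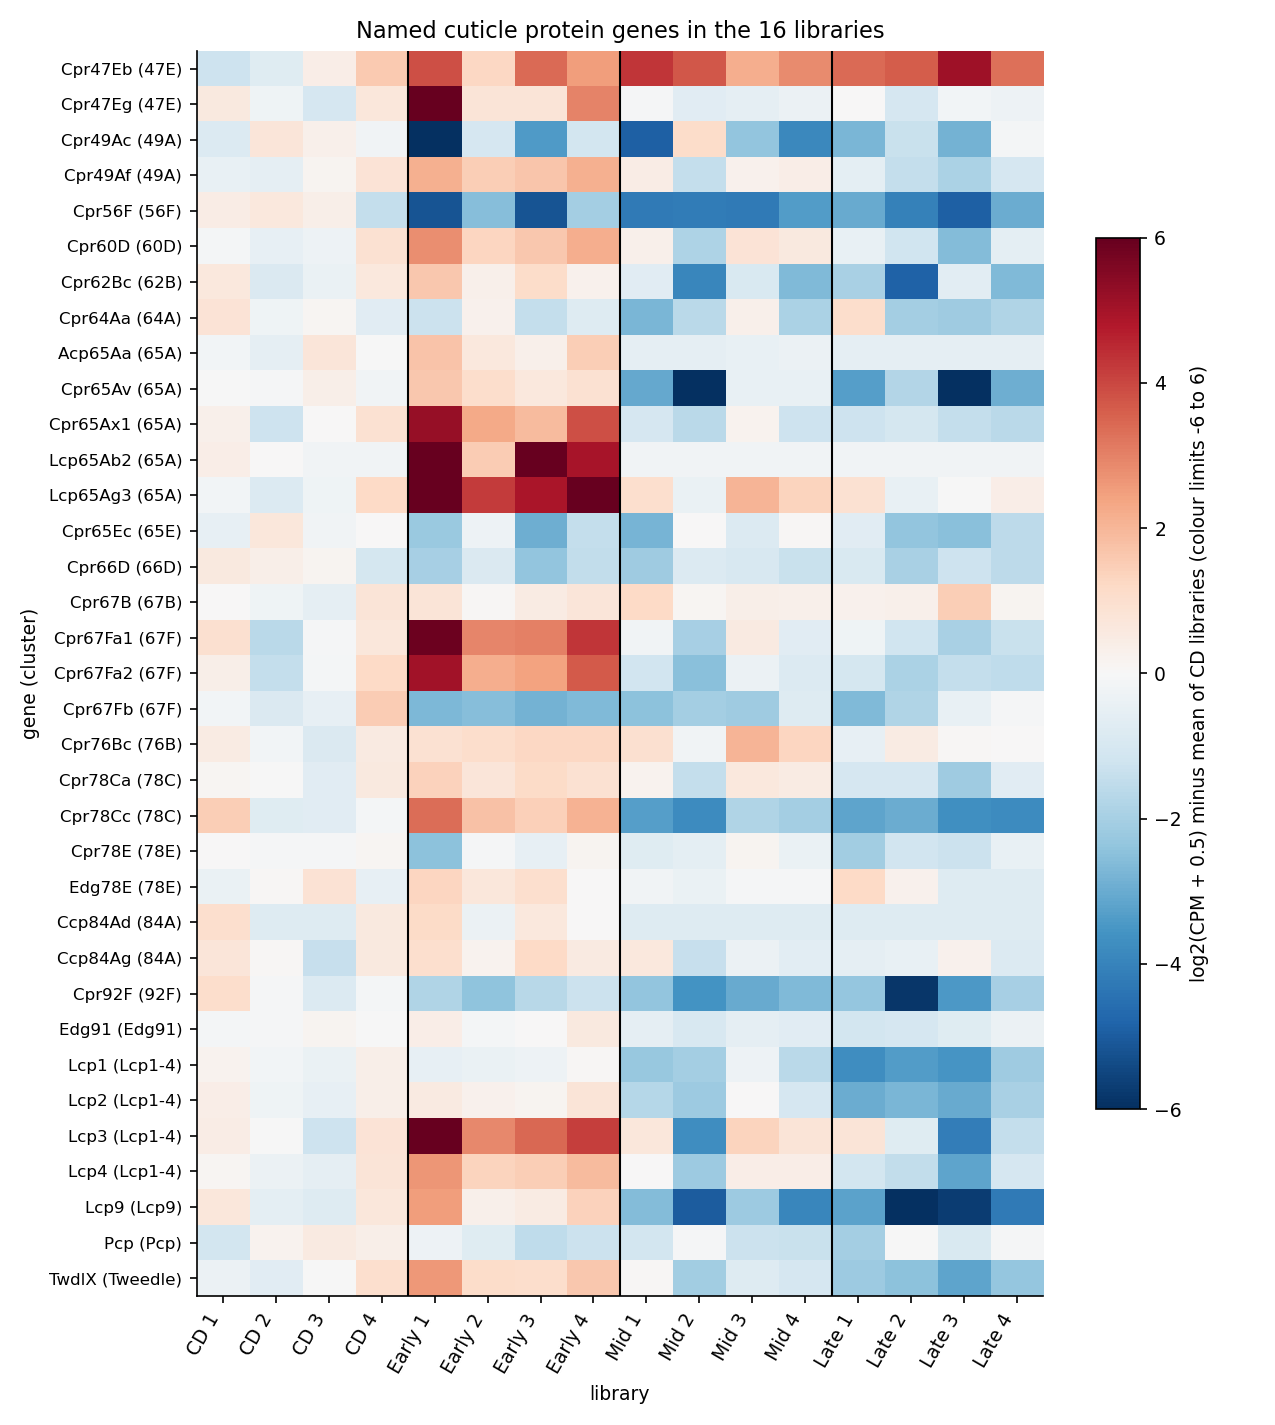
Log2(CPM + 0.5) minus the mean of the CD libraries for the 35 named members that were tested, by gene cluster, in the 16 libraries. Red is above and blue below CD, with Lcp3, Lcp65Ab2, Lcp65Ag3 and Cpr67Fa1 red at Early, Lcp9, Cpr78Cc and Cpr92F blue at Mid and Late, and Cpr47Eb red at all 3 HSD stages.

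Genes that mark the epidermis were measured beside these. Of 15 tested genes of epidermis and its apical matrix, 1 was higher at Early than in CD, 1 at Mid and 3 at Late, and 1 was lower at Late, with a median log2 fold change of 0.07 at Late. Of all genes tested, 6.44% were higher at Early than in CD, 4.37% at Mid and 14.0% at Late. Lower than in CD were 2.70% at Early, 1.95% at Mid and 7.70% at Late, and 10.1% were lower at Late than at Early. The gene lists overlap: kkv is also in the chitin list, pio in the tracheal list, and Gasp, serp and verm in both of those. The transcription factor grh averaged 171 CPM for CD, 259 for Early, 242 for Mid and 229 for Late. The chitin synthase gene kkv was at 390, 644, 556 and 412 CPM in the same order, and neither gene was called. Other genes of the list moved both ways. From CD to Late the mean of rtv went from 38.9 to 25.3 CPM and that of dyl from 0.697 to 15.4. From CD to Early, nyo went from 6.53 to 2.03 CPM, mey from 5.60 to 1.80 and neo from 14.9 to 6.06. At Early the list's summed level was 1.29 to 2.19 of its CD mean, beside 1.19 to 2.94 for the cuticle protein genes, and 3 of the 15 genes were lower at Late than at Early. At Late the list's summed level was 0.974 to 1.38 of its CD mean, whereas that of the cuticle protein genes was 0.237 to 0.403. Of 10 tested markers of the trachea, whose lining is also cuticle, 4 were higher at Early and 4 at Late than in CD. Against CD, no marker of fat body (7 tested) or haemocytes (8 tested) was called at Early or Mid, 1 marker of fat body and 1 of haemocytes was higher and 1 of haemocytes lower at Late, and 1 of 11 markers of imaginal disc and eye was higher at Mid and 1 at Late.

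Chitin matrix genes outside the members were counted in the same way. Of 20 tested genes of that list, 12 were higher and 1 was lower at Early than in CD, with a median of 1.40, and 9 were lower at Late than at Early. Of all genes tested, 6.44% were higher and 2.70% lower at Early than in CD, and 10.1% were lower at Late than at Early. Vajk2 averaged 687 CPM for CD, 2778 for Early, 325 for Mid and 153 for Late, and its fall from Early to Late (−4.19 log2, edgeR adjusted p = 0.000557) and from CD to Late (−2.17, adjusted p = 0.00506) held in every fit that left out a library, with −3.52 for the first without Early 1. Its relative Vajk3 averaged 604, 2330, 363 and 252 CPM. Vajk1 was low, at 11.7 CPM on average in CD and at most 1.73 in any HSD library, and fell at all 3 stages, by 3.42, 4.28 and 3.86 on the log2 scale. Its calls at Early and Mid were lost without CD 3 or CD 4, among others (adjusted p up to 0.105 and 0.0792), and without CD 4 the log2 fold change was −2.55, −3.38 and −2.97 in the same order. Cda5, a chitin deacetylase gene, rose at Late, from 43.0 to 177 CPM (2.04 log2, edgeR adjusted p = 0.0104).

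Genes of cuticle tanning and of the response to ecdysone, the moulting hormone, differed between libraries of a condition. The tanning gene ebony (e) was at 0.455, 160, 2.02 and 1799 CPM in CD and at 0.242, 2.41, 0.194 and 0.459 at Early. At Mid it was at 0.353, 1.83, 0.451 and 1.25 CPM, and in the Late libraries at 1870, 15.3, 3.30 and 2.34. It was called higher at Late than at Early (edgeR adjusted p = 0.0329), and without Late 1 the log2 fold change went from 9.05 to 3.09 and the call was lost. The tyrosine hydroxylase gene ple had the same high libraries, CD 4 (2983 CPM) and Late 1 (2101). Of 12 tested tanning genes, yellow-f2 rose at Early and at Late (2.53 and 3.08 log2), at Early with a call lost in 7 of the 16 fits (adjusted p up to 0.111), and no other was called against CD. Without Late 3 its rise at Late was 1.94. Of 21 tested ecdysone and moulting regulators, 2 were higher and 2 lower at Early than in CD, 1 and 1 at Mid, and 4 and 2 at Late. Over all genes tested, the shares higher and lower were 6.44% and 2.70% at Early, 4.37% and 1.95% at Mid, and 14.0% and 7.70% at Late. The nuclear receptor gene ftz-f1 rose at every stage, from 21.2 CPM in CD to 42.4 at Early, 49.04 at Mid and 47.9 at Late, in every fit that left out a library. Blimp-1 had its lowest mean at Early (6.22 CPM, against 10.4 in CD, 13.8 in the Mid libraries and 15.7 in the Late libraries). The rise of Blimp-1 from Early to Late (1.335 log2) held in every such fit (edgeR adjusted p up to 0.0202). That from Early to Mid (1.153 log2) was lost without CD 1 or Early 1, among others (up to 0.209). Eip78C averaged 90.9 CPM in CD and 2.17 at Early, with CD 1 at 3.69 and CD 4 at 223 (−5.39 log2, −4.47 without CD 4, edgeR adjusted p = 0.0175; lost without Early 1 or Early 3, up to 0.074). Hr38 rose at Early, from 4.39 to 33.3 CPM (edgeR adjusted p = 0.0205; lost without CD 2, CD 3 or Early 1, up to 0.0768; 2.91 log2, 3.52 without CD 1). Hr39 had its highest mean in CD (54.8 CPM, against 42.3 in Early, 36.75 in Mid and 37.3 in Late libraries). It was called lower than CD at Mid (−0.578 log2) and Late (−0.558). Both calls were lost without CD 1 or CD 2, among others (edgeR adjusted p up to 0.144 and 0.103).

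Muscle genes were also higher at Early and lower at Late. Of 17 tested muscle markers, 9 were higher at Early than in CD, 10 were lower at Late than in CD and 17 were lower at Late than at Early. The shares of all genes tested were 6.44%, 7.70% and 10.1% in the same order. Mhc, the myosin heavy chain gene, fell from Early to Late by 3.74 on the log2 scale (edgeR adjusted p = 0.00108). The summed level of the muscle list was 1.79 to 4.73 of its CD mean at Early and 0.224 to 0.535 at Late, with Early 1 highest of all 16 libraries. The part of muscle RNA in the levels of the cuticle protein genes was not tested.

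**Figure D5:**
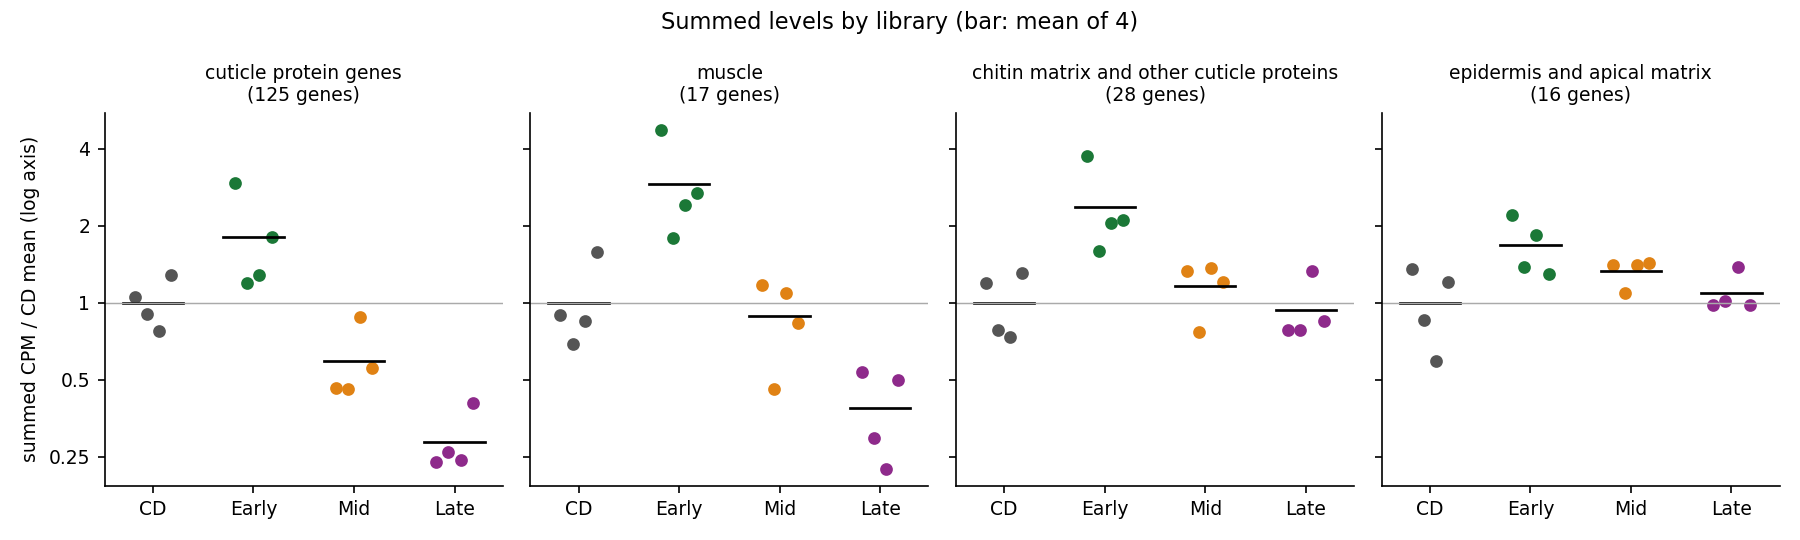
Summed CPM relative to the CD mean, on a log axis, of the 125 cuticle protein genes, 17 muscle markers, 28 chitin matrix genes and 16 epidermal genes in each library, where a bar is the mean of 4. At Late the cuticle protein genes are at 0.237 to 0.403 and the muscle markers at 0.224 to 0.535, while the epidermal genes are at 0.974 to 1.38.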

How the data were processed

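RNA of pooled dissected body-wall muscle was made into stranded mRNA libraries. Per the labels, the authors used CASAVA 1.8.4, TopHat2 2.0.11 and featureCounts with the dm3 genome. The deposited values are raw counts per gene, without normalization. Symbols, exon lengths and gene order came from an annotation of another build, so no coordinates are given, and no sequences are shown. Groups came from the labels. A filter on low values (filterByExpr, minimum count 10, minimum total 15) kept 11607 genes. After TMM scaling, edgeR 4.0.16 under R 4.3.3 fitted a quasi-likelihood model over the 16 libraries together, with no covariate. P-values were adjusted with Benjamini-Hochberg over all 11607 genes, at 0.05. SE is the size of the log2 fold change divided by the square root of the F statistic. CPM per kb uses exon length. Counts of 0 were bounded by 3 counts per library, which covers counting error only. The spread between libraries (common biological coefficient of variation 0.613), more than depth, set the precision. The steps were tested on simulated data.

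Named members were, in each comparison, the 5 called that rose most and the 5 that fell most, the 12 with the highest mean CPM, the highest of each cluster of 3 or more members, and all Edg, Pcp and Acp65 genes. Of the genes outside the members, the rule took Mhc and, in each comparison, the 2 called list genes that rose most and the 2 that fell most. Others were named after their values were seen. Of 151 symbols in the gene lists, 129 matched. The members and lists were chosen with earlier results of these data known. Alternatives were upper-quartile normalization, the size factors of DESeq2, a filter at a mean of 10 CPM or none at all, leaving out the 20 most counted genes, scaling without the cuticle protein genes, the Wald test of DESeq2 1.42.0, the 8 libraries of a comparison alone, a replicate block, and each library left out.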

Additional observations from a re-analysis of the deposited data

Results flagged for a closer look

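Of 137 sets of 4 libraries tested, 17 had a library far from the other 3 of its condition. The rule's rate of about 1 in 20 by chance holds for normally distributed values, which was not checked for CPM. No excess over chance is therefore read from this count. All flagged values but that of Cpr49Af in Mid 2 were high ones. Early 1 was highest for Lcp3 (74666 CPM, next 17405), Lcp65Ag3 (583, next 109) and Cpr47Eg (382, next 7.34). Mid 2 was highest for Cpr49Ac (10921 CPM, next 960) and Pcp (1329, next 644) and lowest for Cpr49Af (107, next 349). Late 3 was highest for Cpr47Eb (3782 CPM, next 1377) and Cpr67B (3569, next 1566), and Late 4 for Lcp1 (6624, next 2877) and for the summed level of all members (25029, next 16131). CD 4 was highest for Cpr60D (638 CPM, next 310) and Cpr67Fb (38.0, next 11.6), and CD 1 for Cpr78Cc (21.8, next 6.92). Mid 4 was highest for Cpr56F (1.28 CPM, next 0.467) and Cpr67Fb (7.48, next 2.80). Cpr64Aa was highest in Mid 3 (10.5 CPM, next 2.38) and in Late 1 (17.6, next 1.99).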

How the results depend on the processing

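No direction was reversed by any alternative among the 63 calls of named members. All 63 held with DESeq2 size factors and with upper-quartile normalization, which moved the median of all genes by −0.08 and −0.17 (log2) between Late and CD and the share of higher calls there to 54.8% and 47.3%. By the DESeq2 Wald test 12 members were called between Mid and CD, 23 between Mid and Early and 7 between Late and Mid, with 1781, 1006 and 571 of all genes called (733, 243 and 22 by edgeR). With only the 8 libraries of a comparison these were 3 and 0 for the first 2, with 441 and 0 of all genes called. With the replicate block, 3 members and 486 of all genes were called between Mid and CD. With a mean of at least 10 CPM, 2 members and 182 of all genes were called between Late and Mid. With Early 1 and Mid 2 left out together, chosen after seeing the data, 10, 7, 28, 0, 0 and 31 members were called for Early minus CD, Mid minus CD, Late minus CD, Mid minus Early, Late minus Mid and Late minus Early, and 399, 760, 2521, 0, 0 and 1689 of all genes. With single libraries left out, the same 6 counts ranged from 7 to 18, 0 to 7, 12 to 26, 0 to 17, 0 to 2 and 27 to 40. Summed levels then ranged for CD from 56375 to 66814 CPM, for Early from 88611 to 124745, for Mid from 30499 to 39191 and for Late from 15297 to 18735. Without the 20 genes with the most counts, 4 of them Lcp1 to Lcp4, the summed level was 16376 CPM for CD, 17122 for Early, 13139 for Mid and 10589 for Late. Libraries with the same replicate number did not deviate together on average (residual correlation, mean −0.00676 over 24 pairs, against 0.0016 over 72). Single pairs ranged from −0.643 to 0.564 and from −0.776 to 0.785, so these means cannot tell whether the numbers mark pairs. The replicate block kept 49 of the 63 calls and gave 13, 3, 23, 11, 0 and 33 members called in the 6 comparisons, and 902, 486, 2228, 267, 6 and 2054 of all genes. Depth and the number of libraries above the cutoff of the filter limit the 53 members that were not tested.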
